A study of Mus musculus with 9 samples.

Results

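Adhesion G protein-coupled receptors and numbered or class C orphan receptors were followed through 3 layers of the mouse tibial growth plate, the round, the flat and the hypertrophic, taken at the proximal end of the bone. The members were all genes named on the array whose symbol begins with Adgr or Gprc, or is Gpr followed by digits only. This gave 83 of 18193 genes: 22 adhesion receptors (Adgr), 5 class C receptors (Gprc) and 56 numbered genes (Gpr). The tissue came from wild-type Black Swiss mice killed as newborns (age 0 days), and every group shares that strain, genotype and age. Each layer was cut by hand from frozen sections, 18 to 20 tibiae of 1 litter of 9 to 10 pups were pooled for a sample, and each of 3 litters gave 1 sample of each layer. The 9 arrays therefore form 3 groups of n = 3 litters, and no step of the dissection isolated chondrocytes from other cells.

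G protein-coupled receptors span the membrane with a bundle of helices and pass signals to heterotrimeric G proteins, which raise or lower cyclic AMP or calcium in the cell. Adhesion receptors carry a long extracellular part that is cut from the helices at a conserved site, stays bound to them and meets matrix proteins or neighbouring cells. A stretch next to the cut can act as a tethered agonist. Orphan receptors are those whose natural ligand is unknown or debated. In cartilage the best known receptor of the larger superfamily is Pth1r, which responds to parathyroid hormone-related protein, and Adgrg6 is known from mouse and human genetics for its part in spine and cartilage development.

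In these data the adhesion receptors Adgrg2 and Adgrg6 and the class C receptor Gprc5a were highest in the round layer, where Adgrg2 was 10.2-fold higher than in the flat layer. Adgrd1, Adgrg3, Gprc5c and Gpr183 were highest in the hypertrophic layer, with Adgrd1 6.21-fold above the round layer. For Adgrd1 and Gprc5c the call between the hypertrophic and flat layers was lost in some alternative settings. The call of Adgrg6 between the flat and round layers was lost in 1. In the flat layer 0 members were highest by limma with both contrasts passed; at an unadjusted p under 0.05 in both, 1 was (Adgra2). Of the numbered receptors 39 of 56 lay below the expression filter, against 7 of 22 adhesion receptors and 6880 of all 18193 genes. The filter kept genes whose mean over the 9 arrays, as log2(signal + 26), lay above the median probe set (7.212). Gpr183 passed it by 0.017, with its round and flat means below it. Its signal in the hypertrophic layer is therefore what let it be tested, and its calls were lost in some alternative settings.

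The promoters of 4 members are shown because these genes stood at the opposite ends of the tissue. Adgrg2 and Adgrg6 were highest in the round layer, and Adgrg3 and Gpr183 in the hypertrophic layer. Each line is the 250 bases before the start that the RefSeq promoter table (GRCm38.p6) gives for the gene, 5′ to 3′ towards the gene, with CG dinucleotides in capitals. For Adgrg2, Adgrg6 and Adgrg3 the RefSeq gene span begins further upstream, so these stretches lie inside the span and precede 1 start among others; that of Gpr183 ends at the base before the span. The stretches are chrX:160390440-160390689 (plus strand) for Adgrg2, chr10:14545037-14545286 (minus strand) for Adgrg6, chr8:95017442-95017691 (plus strand) for Adgrg3 and chr14:121965194-121965443 (minus strand) for Gpr183.
Adgrg2: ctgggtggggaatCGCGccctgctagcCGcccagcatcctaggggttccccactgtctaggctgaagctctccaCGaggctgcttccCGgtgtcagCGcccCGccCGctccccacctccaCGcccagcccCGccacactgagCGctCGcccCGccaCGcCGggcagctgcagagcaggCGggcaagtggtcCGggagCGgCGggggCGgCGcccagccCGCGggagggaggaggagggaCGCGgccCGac
Adgrg6: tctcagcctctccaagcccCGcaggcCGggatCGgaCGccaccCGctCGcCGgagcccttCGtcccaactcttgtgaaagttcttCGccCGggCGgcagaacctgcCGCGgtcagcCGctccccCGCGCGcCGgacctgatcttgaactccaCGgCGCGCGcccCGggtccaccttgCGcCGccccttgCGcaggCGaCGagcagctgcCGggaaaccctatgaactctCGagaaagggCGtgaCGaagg
Adgrg3: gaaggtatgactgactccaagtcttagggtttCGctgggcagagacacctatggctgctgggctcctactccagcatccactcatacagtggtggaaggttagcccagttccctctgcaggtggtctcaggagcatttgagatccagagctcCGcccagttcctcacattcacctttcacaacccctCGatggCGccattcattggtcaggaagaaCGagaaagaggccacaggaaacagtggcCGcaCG
Gpr183: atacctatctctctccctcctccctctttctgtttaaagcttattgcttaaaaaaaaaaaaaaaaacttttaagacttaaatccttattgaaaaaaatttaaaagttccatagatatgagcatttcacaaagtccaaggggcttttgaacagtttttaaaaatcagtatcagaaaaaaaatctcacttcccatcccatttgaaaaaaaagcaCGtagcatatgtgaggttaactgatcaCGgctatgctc

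The Adgrg2 stretch holds 26 CG dinucleotides and the Adgrg6 stretch 32, and 9.59% and 4.58% of the 32851 promoter regions of the table hold as many or more. The Adgrg3 stretch holds 7 and the Gpr183 stretch 2, against a median of 6. CG content did not sort the other members by layer: of those higher in the round layer, Adgra3 holds 25 and Gprc5b 14, but Adgrl2 holds 3. Of the 18 members that passed a contrast, 13 had a promoter in the table, 5 of them more than 1; Adgra2, Adgrd1, Adgre5, Gprc5a and Gprc5c had none. The 19 stretches were searched on both strands for TGTGGT (the core bound by RUNX factors), ACAATG (a SOX core), TGANTCA (AP-1), TGACGTCA (the cyclic AMP response element) and TATAAA; none of these contains another. TGTGGT was found for 2 of the 13 genes (Adgrl3, Gpr161), TGANTCA for 1 (Adgrg1), TATAAA for 2 (Adgrl2, Adgrl3), and ACAATG and TGACGTCA for 0. Among all promoter regions 14.0%, 6.75%, 12.4%, 10.7% and 1.55% hold these motifs, in that order. These shares are per region, whereas the counts are of genes with the motif in any of their stretches. None of the 4 stretches printed here holds any of the 5 motifs.

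The layer labels were checked on known genes. Prg4, the joint lubricant, fell from a mean signal of 15340 (round) to 384.5 (flat) and 198.6 (hypertrophic), and Col10a1, the collagen of hypertrophic cells, had 138.8, 664.0 and 11860 in the same order. Array medians ran from 123.1 to 151.6, and with 9 arrays their number sets the precision. On the round array of litter 1 the actin probe sets gave 4.25 times the signal at the 3′ end that they gave at the 5′ end, compared with 1.45 to 2.06 elsewhere. Skeletal muscle markers (18 genes) were summarised by a score, their mean on the log2 scale less its average over the arrays, which reached 1.47 on the flat array of litter 3. All 18 were higher in the flat layer than in the round one, and 17 were lower again in the hypertrophic layer; the scores ran from -1.07 to -0.19 (round), 0.41 to 1.47 (flat) and -0.89 to 0.57 (hypertrophic). Without both of these arrays (round, litter 1; flat, litter 3), 8 members changed between flat and round, 11 between hypertrophic and flat and 13 between hypertrophic and round, in place of 9, 8 and 14.

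**Figure D1:**
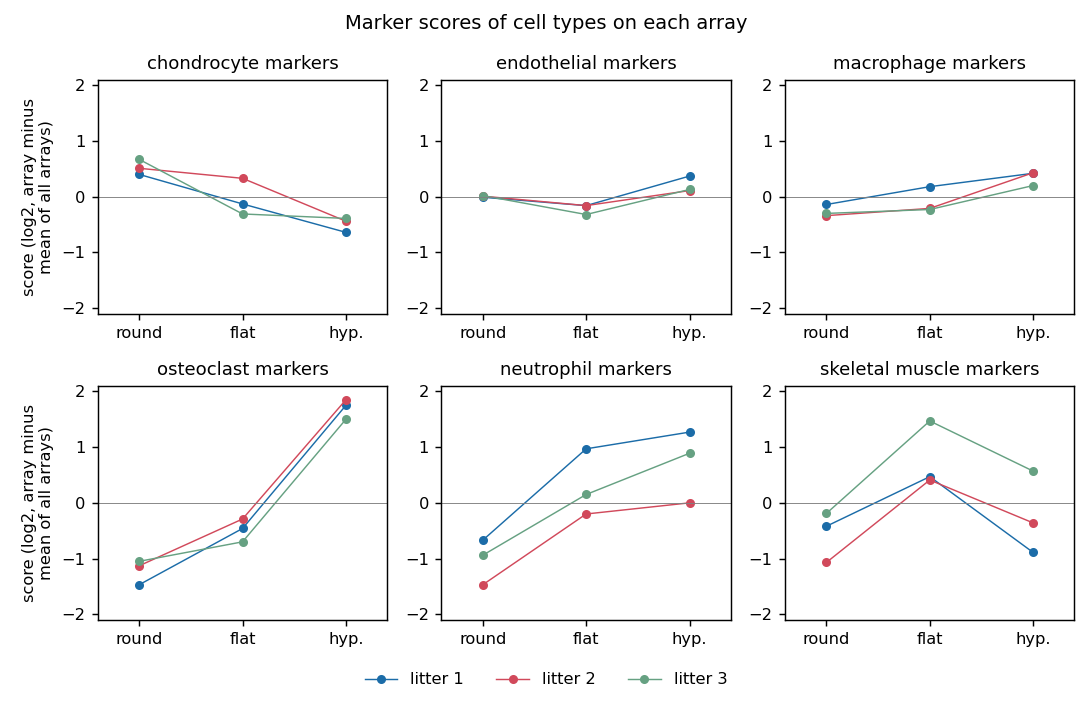
Scores of 6 marker lists on each array (mean log2 value of the tested markers of a list, minus its mean over the 9 arrays) against layer, 1 line per litter. Osteoclast scores were 1.5 to 1.85 in the hypertrophic layer and -1.47 to -0.29 elsewhere, and skeletal muscle scores were highest on the flat array of every litter.

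Markers of other cells moved between the layers in the same samples. Osteoclast markers were higher in the hypertrophic than in the round layer in 9 of 10 tested (of 11 listed), and their summed signal was 76290 to 100400 on hypertrophic, 14280 to 19260 on flat and 7201 to 8827 on round arrays. Neutrophil markers were higher in 4 of 4 tested (of 10 listed), with summed signals of 7143 to 16330, 4827 to 11460 and 2333 to 3135 in the same order. Macrophage markers were higher in 8 and lower in 1 of 16 tested, with sums of 27490 to 35260, 17920 to 21740 and 15880 to 17940. Endothelial markers were higher in the hypertrophic than in the flat layer in 10 and lower in 1 of 16, with sums of 24670 to 26890, 15720 to 18060 and, in the round layer, 20650 to 21680. Chondrocyte markers ran the other way, lower in the hypertrophic than in the round layer in 6 of 9. Perichondrium, fibroblast and tendon markers were higher in 4 and lower in 7 of 16 there, neural and glial markers lower in 2 of 4 tested, and erythroid markers higher in 2 of 2 tested. No marker on the array had a layer mean of 0; Calcr among the osteoclast markers and Camp, Ltf, Elane, Mmp8 and Cxcr2 among the neutrophil markers were below the expression filter. Whether these cells had a part in the receptor differences was not tested, and in such pooled tissue fewer cells of a type and less RNA per cell cannot be told apart.

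Differences were tested by limma over all 11313 genes past the filter, with a term for litter, and a member is said to have changed, or to be higher or lower, only where its adjusted p was under 0.05. Of the 35 members tested, 9 changed between the flat and round layers (25.7%; all genes, percent called 17.0), 3 higher (8.39) and 6 lower (8.64) in the flat layer. Between the hypertrophic and flat layers 8 changed (22.9%; all genes 11.3), 5 higher (6.12) and 3 lower (5.22). That count was the least stable. It was 5 without any 1 flat array, and 5, 4 and 3 without the hypertrophic array of litter 3, 2 and 1. Without the litter term it was 4, and with the muscle score as a covariate 1. That covariate also took the count between flat and round to 4. The share of all genes called between hypertrophic and flat fell in these settings too. It was 6.17% to 8.7% without 1 flat array and 5.22% to 6.47% without 1 hypertrophic array. Without the litter term it was 4.89%, and with the covariate 1.55%. Between the hypertrophic and round layers 14 changed (40.0%; all genes 25.1), 6 higher (12.4) and 8 lower (12.7). In at least 1 contrast 18 changed (all genes 32.7). Over the 35 tested members the median log2 difference was -0.18, 0.17 and -0.22 in these contrasts, against -0.01, 0.00 and 0.01 for all genes. The 3 contrasts share arrays and are not independent. Of the 35, 6 passed the filter with the mean of 1 or more layers below it (Adgrg1, Adgrl3, Gpr173, Gpr176, Gpr182 and Gpr183), so the shares do not describe all 83.

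The families differed in these counts, without a test of that difference. Adhesion receptors changed in 6, 6 and 9 of 15, class C receptors in 3, 1 and 2 of 3, and numbered genes in 0, 1 and 3 of 17. At an unadjusted p under 0.05 by limma the numbered genes had 3, 4 and 6 of 17, and all genes 3401, 2782 and 4138 of 11313. The overall test for any difference among layers was passed by 14 of the 35 (all genes, percent called 28.4), of which 10 were adhesion receptors. A single layer was the highest or the lowest, with both of its contrasts passed, for 9 members (all genes 18.3): 4 were highest in the round layer (6.05), 4 highest in the hypertrophic layer (4.19), 2 lowest in the round layer (4.80) and 3 lowest in the hypertrophic layer (2.78). By limma 0 were highest or lowest in the flat layer (1.90 and 1.08); at an unadjusted p under 0.05 in both contrasts Adgra2 was highest and Gpr182 lowest there.

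**Figure D2:**
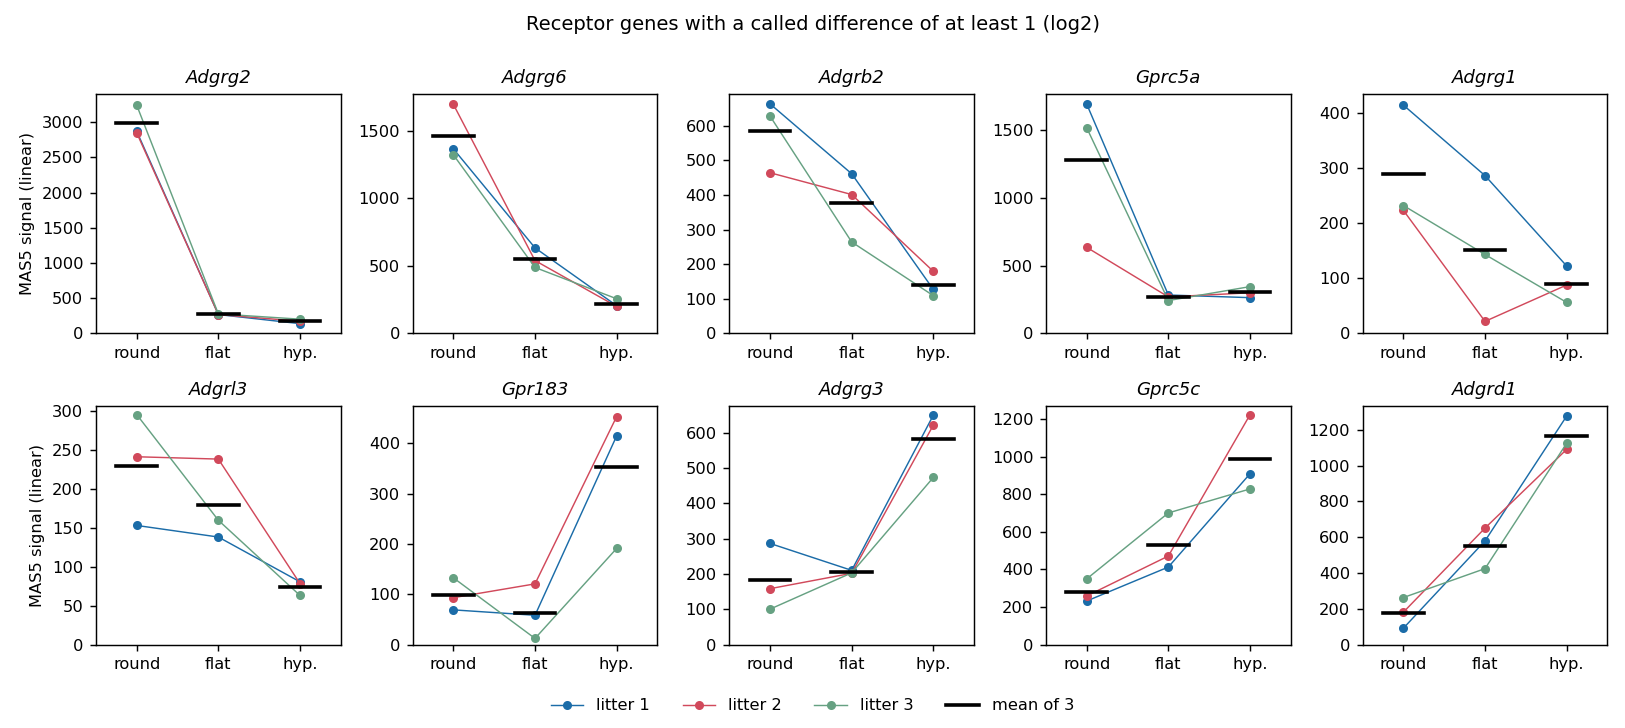
MAS5 signal on a linear scale for the 10 members with a called difference of at least 1 on the log2 scale, by layer (hyp., hypertrophic); points joined by lines are the samples of 1 litter and bars are means of 3. Adgrg2 was 2847 to 3240 on the round arrays and 136.8 to 275.5 on the other 6, and Adgrd1 was 1091 to 1277 on the hypertrophic arrays and at most 651.0 on the others.

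Adgrg2, whose falls from the round layer were the largest differences of the 35 tested members, is known from the epididymis, where it serves fluid uptake. Its signal was 2869, 2847 and 3240 on the round arrays of litters 1 to 3, 266.1, 266.4 and 275.5 on the flat arrays and 136.8, 170.9 and 200.7 on the hypertrophic arrays. No layers overlapped, and nearly all of the fall lay between round and flat. The log2 difference was -3.35 ± 0.16 (SE; adjusted p = 4.42e-07) from round to flat and -3.96 ± 0.16 (adjusted p = 3.29e-08) from round to hypertrophic. From flat to hypertrophic it was -0.61 ± 0.16 (adjusted p = 0.0315), a call lost in 14 of 20 alternatives: without any 1 array except the round array of litter 1, and also without the litter term and in 5 further settings, with adjusted p up to 0.607. A second probe set of the gene gave -2.70 (flat less round), -0.54 (hypertrophic less flat) and -3.23 (hypertrophic less round), the order kept for other genes.

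Adgrg6 binds collagen IV, laminin and prion protein and is needed for myelination by Schwann cells. It was at 1368, 1698 and 1324 in the round layer, 633.7, 539.5 and 488.3 in the flat layer and 204.8, 199.2 and 256.2 in the hypertrophic layer. Its signal thus stepped down at both borders with no overlap. The steps were of like size, -1.36 ± 0.18 (adjusted p = 2.99e-04) and -1.24 ± 0.18 (adjusted p = 0.00115), and made -2.60 ± 0.18 in all, a 6.05-fold difference. A second probe set gave -1.27, -0.83 and -2.1. With the muscle score as a covariate the steps were -1.33 ± 0.47 and -1.26 ± 0.37 and missed the threshold (adjusted p = 0.154 and 0.123), a setting in which 3.28% and 1.55% of all genes were called; the difference between hypertrophic and round held in all 20 alternatives.

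Adgrg1 and Adgrg3 are next to each other among the protein-coding genes of chromosome 8 in RefSeq, with the order Adgrg5, Adgrg1, Adgrg3, and their signals ran in opposite directions. Adgrg1, a receptor for collagen III and transglutaminase 2 in the developing brain, was at 414.1, 223.1 and 231.9 in the round, 286.2, 21.6 and 143.0 in the flat and 122.2, 87.6 and 56.1 in the hypertrophic layer. The flat arrays spread across the range of the others. Adgrg1 passed the filter by 0.167, with its flat and hypertrophic means below it. Its signal in the round layer is therefore what let it be tested. The fall from round to hypertrophic was -1.45 ± 0.44 (adjusted p = 0.0287), and the other contrasts had adjusted p of 0.0910 and 0.7503. Without any 1 of the round arrays, or without the hypertrophic array of litter 1 or 3, that call was lost, as it was without the litter term, with adjusted p up to 0.142. The probe set is of a type (x_at) in which some probes can match other transcripts. A second probe set of Adgrg1, below the filter, gave -0.31, -0.34 and -0.65.

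Adgrg3, known from neutrophils, was at 286.5, 158.3 and 100.3 in the round, 210.2, 201.9 and 203.1 in the flat and 650.0, 621.8 and 473.5 in the hypertrophic layer. All hypertrophic arrays lay above all others, while round and flat overlapped. It rose by 1.38 ± 0.26 from flat to hypertrophic (adjusted p = 0.00441) and stood 1.64 ± 0.26 above the round layer (adjusted p = 5.20e-04). Both calls held in all 19 alternatives that tested the gene. From round to flat Adgrg3 differed by 0.25 ± 0.26 (adjusted p = 0.550). The neutrophil marker S100a8 had mean signals of 1191, 3574 and 5504 in the 3 layers. It was 1.44 ± 0.18 higher in the flat layer than in the round. From flat to hypertrophic it rose by 0.70 ± 0.18 (adjusted p = 0.0228). Whether neutrophils had a part in the Adgrg3 signal was not tested.

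Adgrd1, which couples to the stimulatory G protein Gs, had the largest rise of the 35 tested members. Its signal was 91.1, 180.7 and 262.6 in the round layer, 579.3, 651.0 and 424.3 in the flat layer and 1277, 1091 and 1125 in the hypertrophic layer, with no overlap between layers. It was 2.98-fold higher in the flat layer than in the round (1.57 ± 0.28, adjusted p = 0.00192) and 2.09-fold higher again in the hypertrophic layer (1.06 ± 0.28, adjusted p = 0.0289). The second step was lost without the flat array of litter 2 or 3, without any 1 hypertrophic array, and without the litter term or the mean-variance trend, and was -0.11 with the muscle score as a covariate. The whole difference of 2.64 ± 0.28 (adjusted p = 2.33e-05) held in all 19 alternatives.

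Adgrb2, one of the brain angiogenesis inhibitors, was at 663.5, 464.3 and 628.1 in the round, 461.4, 401.3 and 264.1 in the flat and 126.9, 179.2 and 108.9 in the hypertrophic layer. It was lowest in the hypertrophic layer, at -1.28 ± 0.25 against the flat layer (adjusted p = 0.00574) and -1.90 ± 0.25 against the round layer (adjusted p = 1.27e-04). With the muscle score as a covariate the first of these was -1.05 ± 0.50 (adjusted p = 0.344), with a larger SE, and missed the threshold.

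Adgrl3, a latrophilin that binds FLRT and teneurin proteins at synapses, was at 153.2, 241.6 and 295.9 in the round, 138.3, 238.6 and 159.9 in the flat and 80.7, 78.5 and 63.2 in the hypertrophic layer. Its hypertrophic signals were the lowest of all arrays, and it was lower there than in the round layer (-1.32 ± 0.32, adjusted p = 0.00925), a call lost without the round or the hypertrophic array of litter 3 (adjusted p up to 0.0719). Adgrl3 passed the filter by 0.204, with its hypertrophic mean below it. Another of its probe sets above the filter gave -0.93 for the difference between hypertrophic and round. Of its 4 remaining probe sets, all below the filter, 1 gave 0.20 and the others -1.58 to -0.33.

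**Figure D3:**
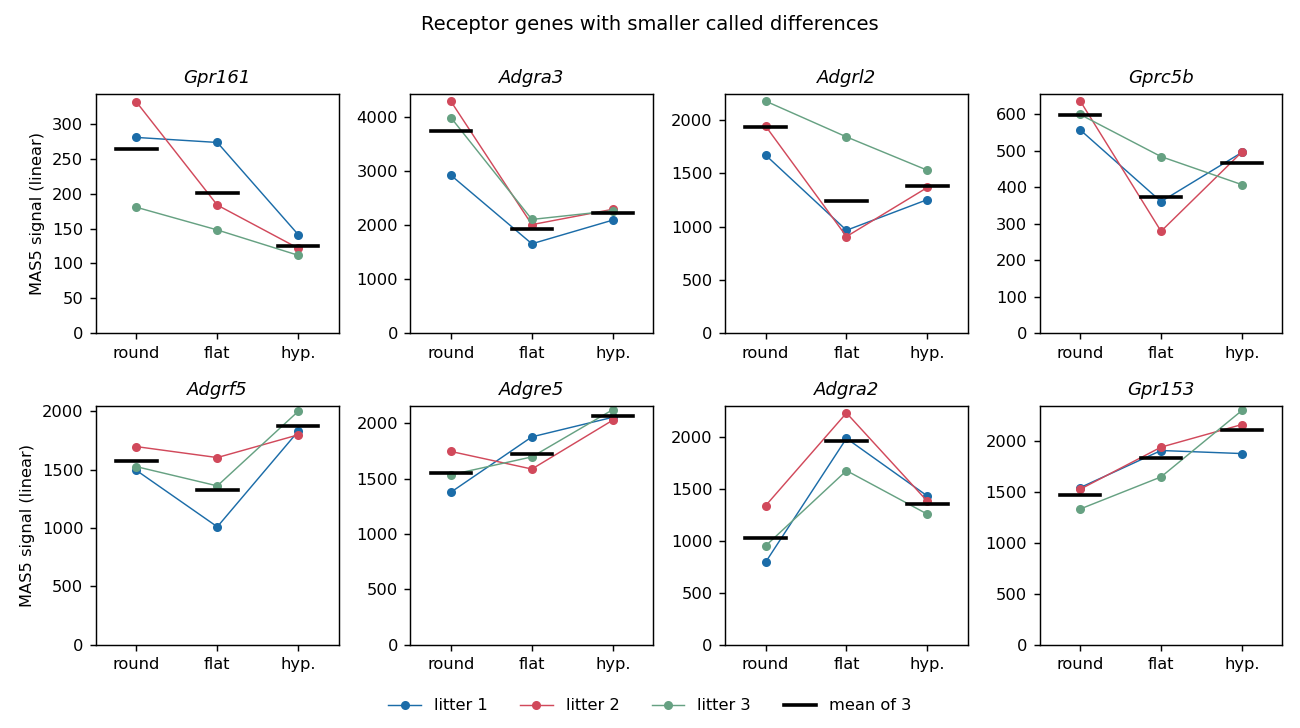
MAS5 signal on a linear scale for the 8 members that passed a contrast with a difference under 1 on the log2 scale, by layer (hyp., hypertrophic); points joined by lines are the samples of 1 litter and bars are means of 3. Adgra2 was highest on the flat array of every litter and Adgra3 on the round array of every litter.

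Adgra2 and Adgra3 went opposite ways from the round to the flat layer. Adgra2, which acts with Reck as a co-activator of Wnt7 signalling in brain vessels, was at 793.2, 1338 and 950.9 in the round, 1988, 2233 and 1677 in the flat and 1432, 1381 and 1257 in the hypertrophic layer. Its flat signals lay above all others. It rose by 0.94 ± 0.16 from round to flat (adjusted p = 0.00138, kept in all 20 alternatives), and the fall to the hypertrophic layer missed the threshold (-0.52 ± 0.16, adjusted p = 0.0553). Adgra3 was at 2920, 4285 and 3985 in the round, 1654, 2008 and 2104 in the flat and 2092, 2292 and 2265 in the hypertrophic layer. It was highest in the round layer, with -0.94 ± 0.13 for flat minus round (adjusted p = 3.13e-04) and -0.73 ± 0.13 for hypertrophic minus round (adjusted p = 0.00115). When all 3 of its probe sets were averaged the differences were -0.74 (adjusted p = 0.121) and -0.12 (adjusted p = 0.819) and passed in neither contrast; the other probe sets lay below the filter. With the muscle score as a covariate the first difference was -0.55 (adjusted p = 0.336).

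Adgrl2, a further latrophilin, was at 1672, 1944 and 2178 in the round layer and 966.2, 907.3 and 1842 in the flat layer, so the layers overlapped through the flat array of litter 3. Its hypertrophic signals were 1254, 1368 and 1529. Flat less round was -0.70 ± 0.17 (adjusted p = 0.0137), lower in the flat layer, a call lost without the round array of litter 2 or the flat array of litter 1 or 2, without the litter term, with its probe sets averaged and with the muscle covariate. In each of the 3 litters the flat signal was still below the round one.

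Adgre5, the leukocyte receptor CD97, was at 1377, 1745 and 1534 in the round, 1877, 1586 and 1696 in the flat and 2054, 2028 and 2123 in the hypertrophic layer. It was 0.41 ± 0.14 above the round layer in the hypertrophic layer (adjusted p = 0.0444). That call was lost in 10 of 20 alternatives, among them those without the round array of litter 1 or 3, the flat array of litter 1 or any 1 hypertrophic array, with adjusted p up to 0.158. Adgre1, the macrophage antigen F4/80, was between 523.5 and 816.5 on all arrays. It changed in no contrast (0.21 ± 0.17, -0.10 ± 0.17 and 0.11 ± 0.17). Of the 16 macrophage markers 8 were higher and 1 was lower in the hypertrophic than in the round layer, and 7 did not pass. Whether macrophages had a part in these signals was not tested.

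Adgrf5, found in endothelium and lung epithelium, was at 1494, 1698 and 1526 in the round, 1010, 1604 and 1361 in the flat and 1830, 1799 and 2001 in the hypertrophic layer. It was 0.52 ± 0.15 higher in the hypertrophic than in the flat layer (adjusted p = 0.0430), a call lost in 11 of 20 alternatives, among them without the round array of litter 2, the flat array of litter 1 or 3 or any 1 hypertrophic array. Adgrl4, another endothelial receptor, had 0.56 ± 0.22 in that contrast (adjusted p = 0.138), and Gpr182, also of endothelium, had 0.84 ± 0.30 (adjusted p = 0.0930). Of the 16 endothelial markers 10 were higher and 1 was lower in that contrast. Cdh5 was 1.15 ± 0.14 higher, and Vwf was lower (-2.62 ± 0.24, adjusted p = 5.23e-05). Whether endothelial cells had a part in these receptor differences was not tested.

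**Figure D4:**
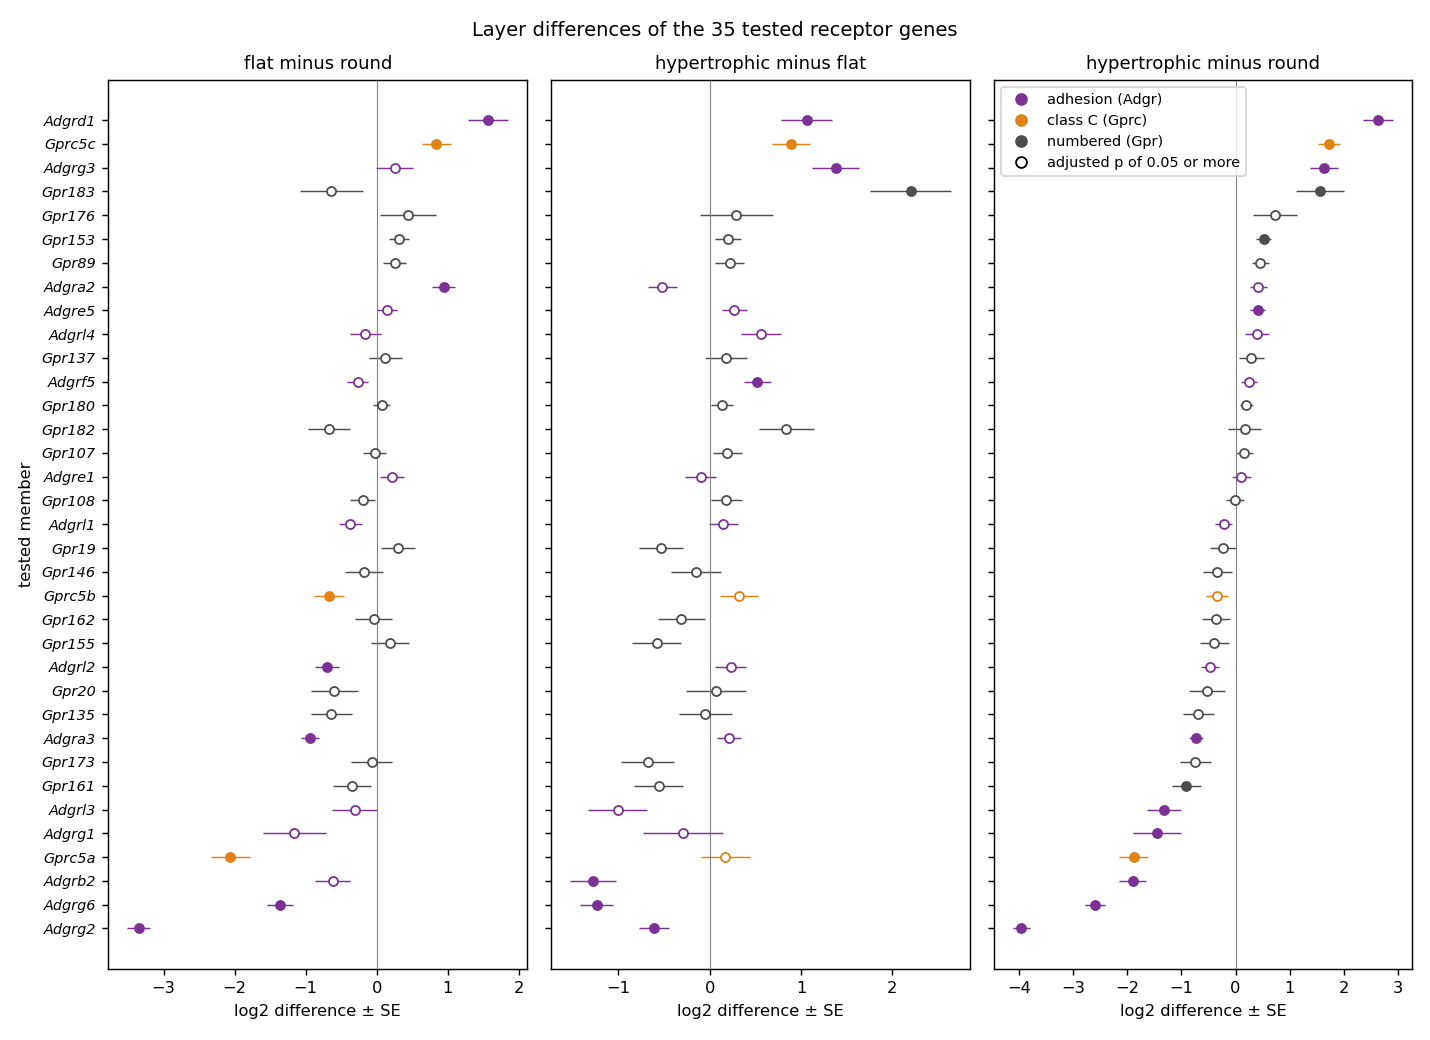
Log2 differences (± SE) of the 35 tested members in the 3 contrasts, ordered by the difference between the hypertrophic and round layers; filled points have adjusted p under 0.05 and colours give the family. The range from Adgrg2 (-3.96) to Adgrd1 (2.64) is spanned by adhesion receptors, and most numbered genes lie near 0.

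The class C genes Gprc5a, Gprc5b and Gprc5c belong to a group first found as retinoic acid-induced genes, and they differed from each other in where they were high. Gprc5a was at 1693, 634.9 and 1518 in the round, 282.9, 268.9 and 241.8 in the flat and 263.3, 299.2 and 344.7 in the hypertrophic layer. The round arrays stood above all others, with the array of litter 2 well below the other 2. It was 4.16-fold lower in the flat layer (-2.06 ± 0.27, adjusted p = 2.65e-04) and 3.69-fold lower in the hypertrophic layer (-1.88 ± 0.27, adjusted p = 2.79e-04), and flat and hypertrophic signals overlapped. Both calls held in all 19 alternatives.

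Gprc5c rose along the tissue instead. It was at 231.5, 258.3 and 349.2 in the round, 412.1, 470.7 and 700.0 in the flat and 908.2, 1222 and 827.6 in the hypertrophic layer, with no overlap. The steps were 0.84 ± 0.21 (adjusted p = 0.0167) and 0.89 ± 0.21 (adjusted p = 0.0178) and together 1.73 ± 0.21 (adjusted p = 8.14e-05). A second probe set gave 1.07, 0.37 and 1.44. The first step was lost without the round array of litter 2 or the flat array of litter 3 and the second without the flat or the hypertrophic array of litter 1 or 2; both were lost without the litter term and with the muscle covariate. The difference between hypertrophic and round held in all 20 alternatives.

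Gprc5b was at 557.0, 636.3 and 598.9 in the round, 360.5, 279.2 and 483.6 in the flat and 495.2, 496.4 and 406.8 in the hypertrophic layer. It was lower in the flat layer than in the round (-0.67 ± 0.21, adjusted p = 0.0446). That call was lost in 12 of 19 alternatives, among them without any 1 array other than the flat or the hypertrophic array of litter 3. A second probe set above the filter gave 0.20 for the same difference, so the probe sets of this gene disagree in sign. Gprc5d and Gprc6a, a receptor for amino acids, were below the filter.

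Of the 17 numbered genes tested, Gpr183 had the largest difference. It is the oxysterol receptor EBI2, which guides B cells and osteoclast precursors. Its signal was 68.8, 93.1 and 132.5 in the round, 58.1, 120.5 and 12.1 in the flat and 414.5, 452.9 and 190.9 in the hypertrophic layer. All hypertrophic arrays lay above the rest, and its mean was just over the filter (by 0.017), with round and flat means below it. It was 2.2 ± 0.44 higher in the hypertrophic than in the flat layer (adjusted p = 0.00661) and 1.56 ± 0.44 above the round layer (adjusted p = 0.0201). The first call was lost without the hypertrophic array of litter 1 and with the muscle covariate (1.17 ± 0.84, adjusted p = 0.555), the second without the round or hypertrophic array of litter 1 or 2 (up to 0.120). A second probe set, below the filter, gave -0.55, 1.40 and 0.85. From the flat to the hypertrophic layer the osteoclast marker Acp5 rose by 3.05 ± 0.23, and 9 of 10 tested osteoclast markers were higher. Whether osteoclasts or their precursors had a part in the Gpr183 signal was not tested.

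Gpr161, a receptor of the primary cilium that restrains hedgehog signalling through cyclic AMP, was at 280.5, 331.3 and 180.5 in the round, 273.3, 183.6 and 148.0 in the flat and 141.3, 121.8 and 111.7 in the hypertrophic layer. Its hypertrophic signals were below all others, and it was lower there than in the round layer (-0.91 ± 0.27, adjusted p = 0.0269). This call was lost in 7 of 18 alternatives, among them without the round array of litter 2 or the hypertrophic array of litter 1 or 2. Gpr153, an orphan, was at 1539, 1523 and 1329 in the round, 1903, 1936 and 1644 in the flat and 1873, 2158 and 2296 in the hypertrophic layer. It was 0.52 ± 0.14 above the round layer in the hypertrophic layer (adjusted p = 0.0153), lost without the round or hypertrophic array of litter 2 or 3.

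The other 17 tested members passed in no contrast. Their log2 differences lay between -0.67 and 0.44 for flat minus round (adjusted p 0.137 to 0.932), between -0.68 and 0.84 for hypertrophic minus flat (0.0930 to 0.944) and between -0.74 and 0.73 for hypertrophic minus round (0.0504 to 0.969). The 5 with the highest mean signal were Gpr180, Adgrl1, Gpr107, Adgre1 and Gpr108; this order is one of probe set signals and not of transcript amounts. Gpr107, Gpr108, Gpr137, Gpr155, Gpr180 and Gpr89 are membrane proteins outside the classic receptor classes. Gpr89, a channel-like protein of the Golgi, came closest to the threshold, with 567.7, 535.4 and 445.8 in the round and 776.5, 677.4 and 705.6 in the hypertrophic layer (0.46 ± 0.16, adjusted p = 0.0504). Adgrl4, Gpr135, Gpr146, Gpr162, Gpr173, Gpr176, Gpr182, Gpr19 and Gpr20 made up the rest.

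The 48 members below the filter were not tested. On 44 of them no array gave a signal of 200 or more. They were the adhesion receptors Adgra1, Adgrb1, Adgrb3, Adgre4, Adgrf1, Adgrf4 and Adgrv1, the class C genes Gprc5d and Gprc6a, and 39 numbered genes. The latter include all 3 proton-sensing receptors of the set (Gpr4, Gpr65 and Gpr132), all 3 that activate Gs without a ligand (Gpr3, Gpr6 and Gpr12) and 9 of 10 receptors of white blood cells (Gpr15, Gpr18, Gpr25, Gpr33, Gpr34, Gpr35, Gpr84, Gpr171 and Gpr174). The remaining ones were Gpr1, Gpr101, Gpr143, Gpr149, Gpr151, Gpr152, Gpr158, Gpr160, Gpr165, Gpr17, Gpr179, Gpr22, Gpr26, Gpr27, Gpr37, Gpr39, Gpr45, Gpr50, Gpr61, Gpr62, Gpr63, Gpr75, Gpr83 and Gpr85. At the border of the filter, Gpr85 lay 0.014 below it and Gpr183 0.017 above. Gpr25, Gpr37 and Gpr85 were above the filter in 1 or more layers. With no filter, adjusted over 18193 genes, 4 of the 48 passed a contrast. In that setting 9.37% of all genes were called for flat minus round, 5.85% for hypertrophic minus flat and 14.6% for hypertrophic minus round. Gpr25 was higher in the flat layer than in the round (3.11, adjusted p = 0.00137). Gpr85 was lower in the hypertrophic than in the round layer (-2.14, adjusted p = 0.00148). Gpr132 (1.62, adjusted p = 0.0342) and Gpr143 (1.36, adjusted p = 0.0469) were higher there. The round means of Gpr25 (10.85), Gpr132 (17.19) and Gpr143 (14.5) were under the pseudocount of 26. Hypertrophic means were 105.7 for Gpr132 and 79.95 for Gpr143, and both were below the filter in every layer. For hypertrophic minus round, other probe sets below the filter gave -1.63, -0.53 and -0.09 for Gpr85 and 0.93 for Gpr132.

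**Figure D5:**
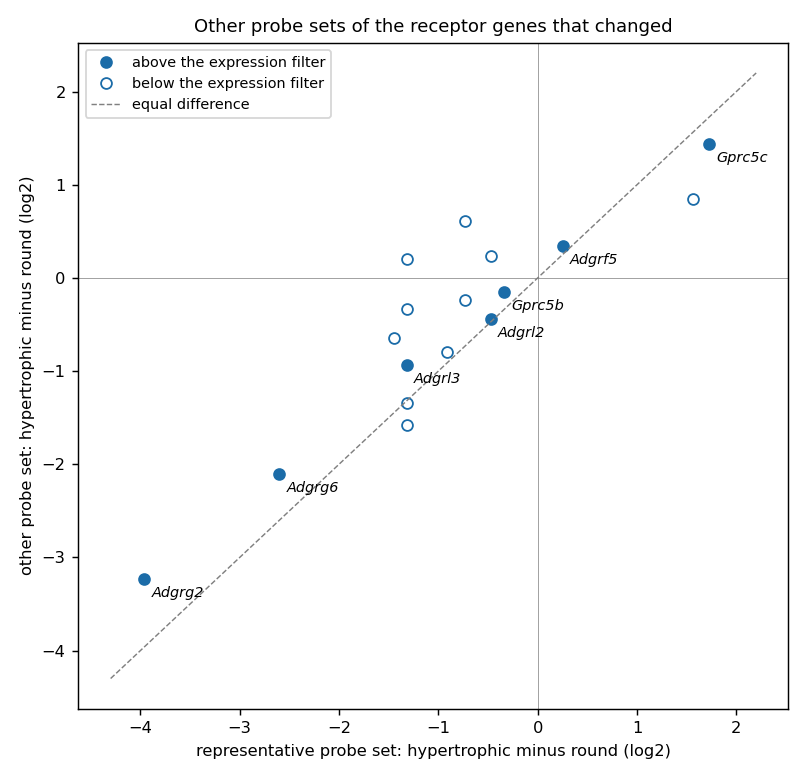
Difference between the hypertrophic and round layers (log2) of each further probe set of the members that changed, against that of the probe set used; filled points are above the expression filter and the dashed line marks equal differences. All 7 filled points have the sign of the probe set used in this contrast, which Adgrf5, Adgrl2 and Gprc5b did not pass. Adgrg2 (-3.96 and -3.23) and Adgrg6 (-2.60 and -2.1) are the lowest.

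Further probe sets existed for 34 of the 83 members. For the members that changed there were 17, of which 7 were above the filter, and all 7 had the sign of the representative probe set for hypertrophic minus round. Of the 10 below the filter 7 did so, and the exceptions were 1 each of Adgra3, Adgrl2 and Adgrl3. Adgrf5, Adgrl2 and Gprc5b did not pass that contrast themselves. In the contrast that Gprc5b did pass, flat minus round, its second probe set had the opposite sign (0.20 against -0.67).

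Ligands and signalling partners of these receptors were read as fixed lists. Of 27 genes listed as ligands or binding partners of adhesion receptors, 19 were tested; 5 were higher and 2 lower in the flat layer than in the round, 2 and 6 in the hypertrophic than in the flat, and 4 and 6 in the hypertrophic than in the round. Their median differences were -0.01, -0.35 and -0.33, and those of all genes -0.01, 0.00 and 0.01. The shares that changed were 36.8%, 42.1% and 52.6%, and of all genes 17.0%, 11.3% and 25.1%. Prnp, the prion protein that Adgrg6 binds, was lower than in the round layer in the flat (-1.46 ± 0.12, adjusted p = 1.17e-05) and hypertrophic layers (-1.38 ± 0.12, adjusted p = 5.39e-06). The listed collagen IV genes Col4a1 and Col4a2 passed in no contrast (flat minus round -0.20 and -0.31, adjusted p = 0.318 and 0.0760). The laminin gene Lama2 was higher in the flat layer than in the round (0.69 ± 0.21, adjusted p = 0.0432). It was lower in the hypertrophic than in the round layer (-0.63 ± 0.21, adjusted p = 0.0482). Lama1 was below the filter. The CD97 partners Thy1 and Cd55 were highest in the hypertrophic layer, Thy1 at 1.92 ± 0.14 against the round layer (adjusted p = 1.15e-06) and Cd55 at 2.16 ± 0.26 against the flat layer (adjusted p = 2.91e-04). The teneurin Tenm3, of a family that binds latrophilins, was lower in the hypertrophic than in the flat layer (-0.94 ± 0.13, adjusted p = 5.70e-04).

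Of 8 ligands or ligand enzymes of numbered receptors, 7 were tested, with 3 lower in the flat layer than in the round, 1 higher and 1 lower in the hypertrophic than in the flat, and 2 lower in the hypertrophic than in the round (shares 42.9%, 28.6% and 28.6%; medians -0.37, 0.25 and -0.34). All genes changed in 17.0%, 11.3% and 25.1% of cases in these contrasts. Rarres2, chemerin, was lower in the hypertrophic than in the round layer (-2.29 ± 0.27, adjusted p = 6.09e-05), and Gpr1, a receptor for it, was below the filter. Hsd3b7, an enzyme that removes the ligand of Gpr183, was lower in the flat layer than in the round (-1.25 ± 0.14, adjusted p = 7.97e-05) and higher again in the hypertrophic layer (0.55 ± 0.14, adjusted p = 0.0216).

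Downstream, 17 G protein subunits were tested, and in the order of contrasts used above 2 were lower in the first, 3 higher and 1 lower in the second, and 2 higher and 1 lower in the third (shares 11.8%, 23.5% and 17.6%; medians -0.13, 0.14 and 0.06). Gng11, a gamma subunit, was lowest in the flat layer (-0.59 ± 0.11 against the round layer, adjusted p = 0.0025). Gnas, the Gs alpha subunit, was lower in the hypertrophic than in the flat layer (-0.50 ± 0.12, adjusted p = 0.0197) and Gnai1, an inhibitory alpha subunit, was higher there than in the round layer (0.82 ± 0.15, adjusted p = 0.00125). RGS proteins, which switch off G proteins, counted 3 lower, 1 higher and 1 lower, and 1 higher and 3 lower of 11 (shares 27.3%, 18.2% and 36.4%; medians -0.10, 0.10 and -0.06), with Rgs4 lower in the flat layer than in the round (-1.66 ± 0.26, adjusted p = 8.58e-04) and Rgs11 lower in the hypertrophic layer than in the round (-2.30 ± 0.28, adjusted p = 6.68e-05). Receptor kinases and arrestins counted 1 lower, 1 higher, and 2 higher and 2 lower of 8 (shares 12.5%, 12.5% and 50%; medians -0.01, 0.03 and -0.08), with the kinase Grk3 higher in the hypertrophic than in the round layer (1.02 ± 0.16, adjusted p = 5.35e-04). Cyclic AMP signalling genes counted 1 higher and 4 lower, 1 and 1, and 2 and 3 of 25 (medians 0.11, -0.11 and -0.11), with Adcy2 and Adcy3, both adenylyl cyclases, moving apart from the flat to the hypertrophic layer (-0.96 ± 0.18, adjusted p = 0.00487, and 0.70 ± 0.14, adjusted p = 0.00611). The share of the cyclic AMP list that changed (20.0%, 8% and 20.0%) was near that of all genes.

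Related receptors whose names fall outside the rule were read beside them: of 15 listed, 9 were tested, with 2 higher and 3 lower, 4 higher, and 3 higher and 3 lower (shares 55.6%, 44.4% and 66.7%; medians -0.45, 0.42 and -0.34). Shares of all genes were 17.0%, 11.3% and 25.1%. Pth1r was 2.94 ± 0.17 higher in the hypertrophic than in the round layer (adjusted p = 1.41e-07). The adhesion receptor Celsr2 changed in no contrast (-0.75 ± 0.30, 0.42 ± 0.30 and -0.34 ± 0.30), and Celsr1 and Celsr3 were below the filter. Gpr137b, a lysosomal membrane protein, was 2.16 ± 0.17 higher in the hypertrophic than in the flat layer (adjusted p = 1.79e-05). Lgr6, a receptor for R-spondins, was lowest in the flat layer, at -2.68 ± 0.22 against the round layer (adjusted p = 1.00e-05).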

How the data were processed

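The authors deposited 1 table of MAS5 signal intensity on a linear scale for 45101 probe sets and 9 Affymetrix mouse arrays; the submitters' processing notes name Affymetrix Expression Console and MAS5, with no version. Every column has a trimmed mean of 500.003 (2% off each end). A gene was read from the probe set that names it alone and has the highest mean of log2(signal + 26); 26 lies at the 20th percentile of the table, so folds near it are understated. Of the probe sets 64 are controls, 34945 name 1 gene, 932 several and 9160 none, and the gene of 34741 was matched to RefSeq (GRCm38.p6). The 11313 of 18193 genes over the median probe set were fitted with limma 3.58.1 (R 4.3.3; layer, litter, variance trend; Benjamini-Hochberg, 0.05), which gave every adjusted p here and was tested on simulated data. Replicate numbers are litters in the design text; deviations correlated at 0.167 to 0.517 within litters (9 pairs) and -0.434 to 0.0815 between them (18).

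Members, lists and tests were chosen with earlier results of these data known. Members past 0.05 in a contrast are all named. From other lists the genes named are those with the lowest adjusted p in a direction. Acp5, the Celsr genes and the collagen IV and laminin genes were chosen after their values were seen. Alternatives changed the litter term, pseudocount, filter, scaling, probe set rule, variance trend, a muscle covariate and the arrays used.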

Additional observations from a re-analysis of the deposited data

How the results depend on the processing

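Of 31 calls of named members, 12 held in every alternative that tested them and 19 were lost in at least 1. The calls that held include both large differences of Adgrg2, those of Gprc5a and Adgrg3, Adgra2 and Adgrd1 for flat minus round, and Adgrg6, Adgrd1, Gprc5c and Adgrb2 for hypertrophic minus round. The pairing by litter mattered for counts: with no replicate block the counts of members that changed were 11 (hypertrophic minus round), 6 (flat minus round) and 4 (hypertrophic minus flat), where 14, 9 and 8 are reported; of all genes 16.1%, 8.26% and 4.89% were then called, in place of 25.1%, 17.0% and 11.3%. With the skeletal muscle score as a covariate 4 members changed for flat minus round, 1 for hypertrophic minus flat, and 5 were highest or lowest in a layer in place of 9; that score was highest in the flat layer and the setting called 3.28% and 1.55% of all genes in the first and second contrasts. With the filter at the 75th percentile 16 members were tested. The counts were 4 for hypertrophic minus flat and 7 for hypertrophic minus round, with 14% and 30.5% of 7006 genes called. For any layer the count was 8 (in place of 14), and 4 members were highest or lowest in a layer. Leaving out 1 array gave 6 to 9 members for flat minus round and 3 to 10 for hypertrophic minus flat. The count of 3 was without the hypertrophic array of litter 1. For hypertrophic minus round it gave 10 to 15, for any layer 11 to 15 and for highest or lowest 8 to 10. Of all genes 10.8% to 17.3%, 5.22% to 14.7% and 15.6% to 25.8% were then called in the 3 contrasts, in that order. Centring arrays on medians moved the median of all genes by -0.059, 0.071 and 0.013 and quantile normalization by at most 0.012. All-gene calls then split into 737 higher and 1118 lower (flat minus round) and 838 higher and 448 lower (hypertrophic minus flat) with median centring, in place of 949 and 977 and of 692 and 591.

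A sign turned in 1 called difference, Adgrd1 for hypertrophic minus flat (-0.11 with the muscle covariate). The other turns were in differences that had not passed. With that covariate, hypertrophic minus flat was -0.08 for Adgra3, and flat minus round was -0.72 for Adgrg3, 0.70 for Adgrl3, -0.04 for Gpr153 and 0.73 for Gpr183. For hypertrophic minus flat, Adgrg1 was 0.10 without the round 1 and flat 3 arrays together and -0.98 to 0.08 without 1 array (0.08 and 0.04 without the flat array of litter 1 or 3); Gprc5a was -0.11 without those 2 and -0.04 to 0.41 without 1 array (-0.04 and -0.02 without the hypertrophic array of litter 2 or the flat array of litter 3); and Gprc5b was -0.01 with its probe sets averaged. The cause was not tested in any of these. Signals near the pseudocount, as on some arrays of Gpr183 and Adgrg1, also limit the precision, and their SE was 0.44.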
